A study of Homo sapiens with 10 samples.

Results

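The amino acid supply program of the transcription factor ATF4 was followed here through 33 genes. These were ATF4 itself and 32 genes known to respond to it or to act with it. They were chosen by symbol, with earlier results of these data known. All 33 were found among the 25370 genes of the read count table, and all 33 passed the expression filter that left 16490 genes for testing. They comprise 10 stress transcription factors and feedback genes, 7 enzymes of asparagine, serine and one-carbon synthesis, 6 enzymes of proline, cysteine, alanine and carbon metabolism, 8 amino acid transporters, and the surface receptor VLDLR and the secreted protein STC2. The libraries came from PEO1, an established epithelial line of ovarian carcinoma deficient in the repair protein BRCA2, and from 4 clones of it that grow in the PARP inhibitor veliparib. Parental PEO1, labelled wild type and parental, had 2 libraries. The clones ABTr1, ABTr2, ABTr3 and ABTr4, labelled veliparib resistant, had 2 libraries each. The clones spent 6 months in 40 µM veliparib and were without drug for the last 4 to 5 days before RNA extraction. Parental cells and clones grew in one medium, DMEM with serum, insulin, glutamine and nonessential amino acids. Each resistant group is 1 clone. The study's plan counted 15 samples from 3 experiments; 10 libraries were analysed here, and the labels do not say which experiment or culture a library came from, so p-values measure only the spread between these libraries, which may be technical. The comparison asks how far the clones differ from the cells they came from in this set of genes.

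ATF4 is a bZIP transcription factor that controls amino acid supply in stressed cells. When a cell runs short of amino acids, or when its endoplasmic reticulum is overloaded, kinases phosphorylate the initiation factor eIF2, general translation slows and the ATF4 protein is made from its existing mRNA. ATF4 then binds composite C/EBP-ATF sites and raises genes that import and synthesize amino acids, together with genes of stress feedback.

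The motif TGATGNAA, the core of the C/EBP-ATF response element, was searched on both strands of RefSeq promoters (build GRCh38.p14), from 250 bases before to 50 bases after each annotated start. Of the 33 genes, 26 had a promoter in that table, with 41 starts in all. No other motif was searched. The motif was present at 8 of these 41 starts (19.5%), 1 in each of 8 genes, against 3.62% of all 35116 promoters in the table. ATF3, ASNS, CEBPG, SLC1A4, SLC1A5 and SLC3A2 also have annotated starts without a match. Positions below refer to the start with the match. The 8 stretches are shown because the motif is the textbook binding site of ATF4 with its C/EBP partners. The capitals mark the match, and each stretch reads 5′ to 3′ on the strand of its gene.
ASNS, chr7:97872458-97872487, minus strand, 68 bases before the start: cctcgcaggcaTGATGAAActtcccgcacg
CHAC1, chr15:40953251-40953280, plus strand, 209 bases before the start: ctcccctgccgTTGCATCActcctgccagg
CEBPG, chr19:33374060-33374089, plus strand, 42 bases before the start: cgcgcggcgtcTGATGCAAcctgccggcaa
ATF3, chr1:212565205-212565234, plus strand, 191 bases before the start: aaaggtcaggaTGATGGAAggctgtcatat
SLC1A5, chr19:46784893-46784922, minus strand, 97 bases before the start: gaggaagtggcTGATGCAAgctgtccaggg
SLC1A4, chr2:64989381-64989410, plus strand, 7 bases before the start and running across it: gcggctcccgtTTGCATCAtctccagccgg
SLC7A1, chr13:29595663-29595692, minus strand, 8 bases into the transcript: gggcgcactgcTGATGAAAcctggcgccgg
SLC3A2, chr11:62881725-62881748, plus strand, 38 bases into the transcript: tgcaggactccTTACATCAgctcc
In CHAC1, SLC1A4 and SLC3A2 the capitals are the reverse complement of the motif. A match is a description of letters, and no match says only that these letters are not in that window.

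The libraries held 20640602 to 55488566 counted reads. Of 9 epithelial markers, summed levels were 9406 to 14550 CPM (counts scaled to library size, with TMM factors) in PEO1 and 2704 to 3555 CPM in the clone libraries. In the mean comparison described below, 8 of the 9 were called lower in the clones, where 8.79% of all tested genes were. Of 8 fibroblast markers, summed to 89.1 to 176 CPM in parental and 134 to 183 CPM in clone libraries, COL3A1, DCN and LUM had 0 reads in all 10 libraries. The 7 leukocyte markers summed to 41.5 to 53.7 CPM in parental and 74.5 to 147 CPM in clone libraries, and the 5 endothelial markers to 15.5 to 62.4 and 2.01 to 16.3 CPM. In the same mean comparison the leukocyte marker CD68 was called higher (log2 ratio 1.55) and the endothelial marker CDH5 lower (log2 ratio -4.78). The other tested endothelial markers had positive log2 ratios, 0.72 for PECAM1, 1.69 for VWF and 2.14 for KDR, and were not called. The other tested leukocyte markers stood at -1.03 (CD14), 1.74 (ITGAM) and 0.18 (LYZ) and were not called either. The part of these marker differences in the results below was not tested. In RNA from whole cultures, fewer cells that express a gene and less of its RNA per cell cannot be told apart.

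The parental libraries differed from each other in most of these genes. PEO1 replicate 2 was above all 8 clone libraries in 29 of the 33 genes, the exceptions being ATF4, ATF3, PSPH and ALDH18A1. PEO1 replicate 1 was above all 8 in 9 genes, within the clones' range in 21 and below all 8 in 3 (PSPH, ALDH1L2 and SLC1A4). Shares of all tested genes are not given for these counts against a single parental library, so they describe only these genes. In PEO1, 25 of 33 genes were at least 2-fold higher in replicate 2 than in replicate 1, where 7.40% of all tested genes were, and 1 (ATF3) was at least 2-fold lower, where 7.04% of all tested genes were. The median difference of log2(CPM + 0.5), replicate 2 minus replicate 1, was 1.495 over the 33 genes and -0.0023 over all tested genes in PEO1. In ABTr1, ABTr2, ABTr3 and ABTr4 the median over the 33 genes was -0.38, -0.19, 0.22 and 0.07. In these clones 1, 3, 5 and 5 of the 33 genes were at least 2-fold higher in replicate 2, where 2.93%, 8.65%, 4.01% and 7.35% of all tested genes were, and 5, 6, 2 and 1 were at least 2-fold lower, where 3.34%, 8.39%, 4.35% and 3.70% were. The parental pair thus stood apart from the clone pairs in the median of these genes. Every comparison with parental cells below rests on this pair. A fit without 1 of the PEO1 libraries leaves 1 parental library. The adjusted p and the calls of such a fit take their spread from the clone pairs alone. They do not measure variation between parental libraries.

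**Figure D1:**
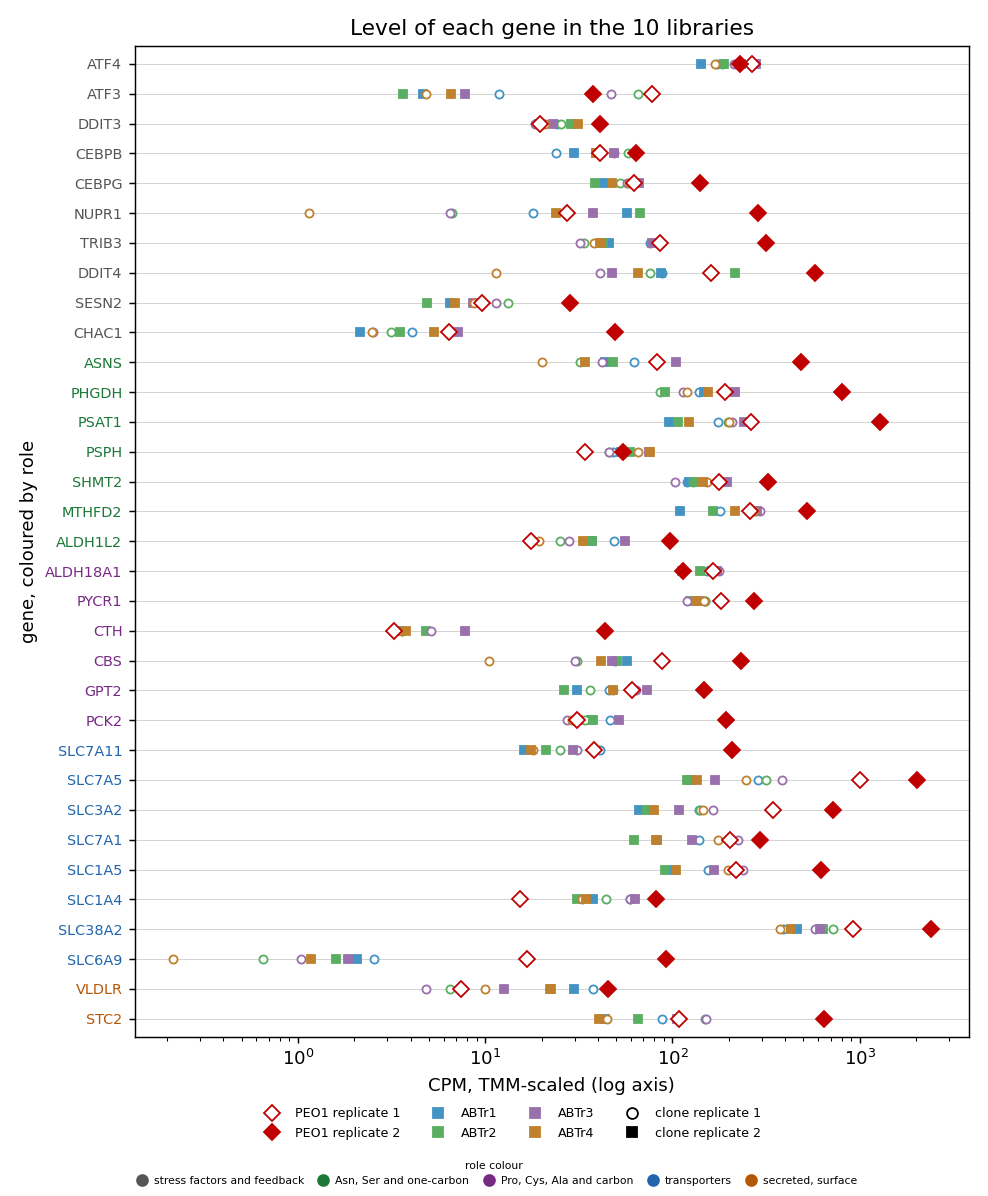
CPM of each of the 33 genes (rows, coloured by role) in the 10 libraries on a log axis; diamonds are PEO1, open for replicate 1 and filled for replicate 2, and circles and squares are replicates 1 and 2 of the clones. The filled diamond lies to the right of every clone point in 29 rows, and the open diamond in 9. Shares of all tested genes are not given for these counts.

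The replicate difference of PEO1 was tested against that of the clones in edgeR, as a term added to group and replicate number. It passed at an adjusted p under 0.05 for 17 of the 33 genes, all with a larger excess of replicate 2 over replicate 1 in PEO1, where 1.13% of all tested genes passed in that direction and 1.58% in the other. At an unadjusted p under 0.05 it was 24 genes in that direction and 0 in the other, and DESeq2 and limma-voom called 20 and 19, all in that direction. The median of this difference of log2 differences was 1.61 over the 33 genes and -0.01 over all tested genes. The count was 12 to 22 with any 1 clone library left out. This test sets 1 pair of parental libraries against 4 pairs of clone libraries, and it cannot say how another parental pair would behave. Because the 33 genes were chosen with earlier results of these data known, the count describes them and is not independent evidence. For the unadjusted threshold, the other tools and the fits with a library left out, shares of all tested genes are not given.

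**Figure D2:**
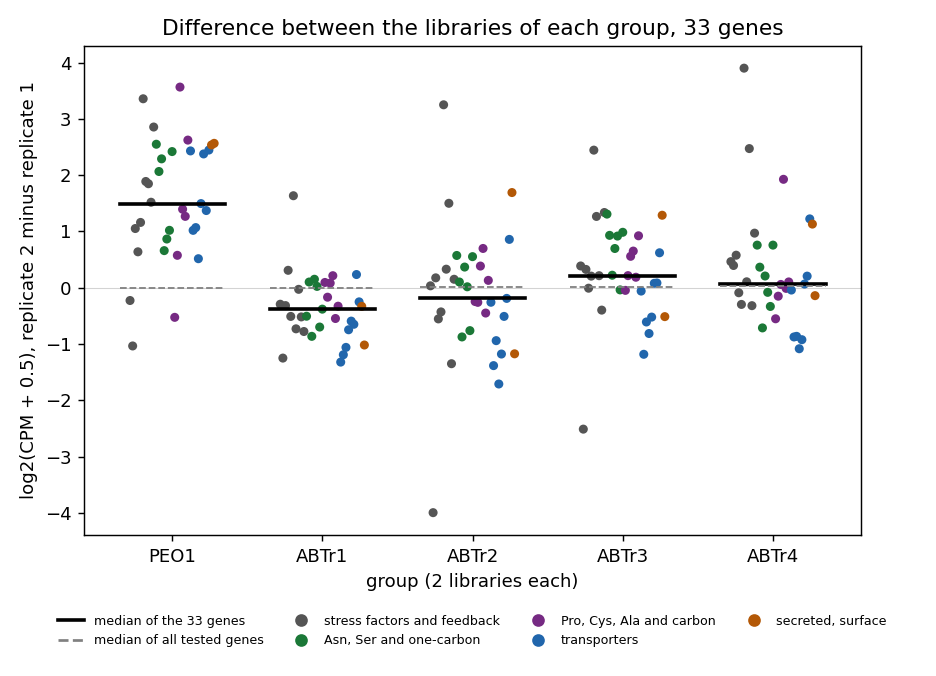
Difference of log2(CPM + 0.5) between replicate 2 and replicate 1 in each group, 1 point for each of the 33 genes coloured by role; black bars are medians of the 33 genes and dashed bars medians of all 16490 tested genes. The black bar stands at 1.495 in PEO1 and between -0.38 and 0.22 in the clones. In PEO1 30 of the 33 genes lie above 0, among them all 8 transporters (blue).

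The transcript of ATF4 (hg19 chromosome 22, 39916564 to 39918691) was lower, not higher, in PEO1 replicate 2. ATF4 was at 267 and 228 CPM in PEO1 replicates 1 and 2. The clone values were 173 and 142 CPM in ABTr1, 184 and 188 in ABTr2, 214 and 280.3 in ABTr3, and 168 and 232 in ABTr4. The groups overlapped, since ABTr3 replicate 2 stood above both parental libraries. Its log2 ratio in the mean of the 4 clones was -0.34 (SE 0.20, edgeR BH-adjusted p = 0.288), and its parental replicate difference minus that of the clones was -0.38 (SE 0.33, edgeR BH-adjusted p = 0.653). The ATF4 protein was not measured in these files.

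Over the whole set, 17 of 33 genes fell and 0 rose when the 4 clones, averaged, were set against PEO1 (edgeR quasi-likelihood test, Benjamini-Hochberg adjustment over 16490 genes). Of all tested genes 8.79% were called lower and 7.17% higher in that comparison. None of the 33 was higher at an unadjusted p under 0.05 in edgeR, nor was any called higher by DESeq2 or limma-voom. The median log2 ratio of clones to parental was -1.62 over the 33 genes and 0.02 over all tested genes. A block on the replicate number takes the replicate difference as shared by PEO1 and the clones. The test of the replicate differences above did not bear this out for 17 of the 33 genes. CEBPG, SESN2, MTHFD2, PCK2 and SLC7A1, called only with the block, are among those genes. With the replicate number as a block, 25 of the 33 fell and 0 rose, where 18.2% of all tested genes were called lower and 16.3% higher. Without PEO1 replicate 2 the count was 1 (SLC6A9), where 3.27% of all tested genes were called lower and 2.09% higher. Without PEO1 replicate 1 it was 23, where 7.63% of all tested genes were called lower. With the block and without PEO1 replicate 2, a fit chosen after the data were seen, 11 fell and 1 rose, where 12.1% of all tested genes were called lower and 10.3% higher. The 11 were 9 of the 17 called without the block and 2 (ATF3 and NUPR1) of the 8 that only the block called. All 8 clone libraries lay below both parental libraries for 8 of the 33 genes, where 12.5% of all tested genes did: TRIB3, PSAT1, PYCR1, CBS, SLC7A5, SLC3A2, SLC38A2 and SLC6A9. For none of the 33 did all 8 lie above, where 14.5% of all tested genes did.

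**Figure D3:**
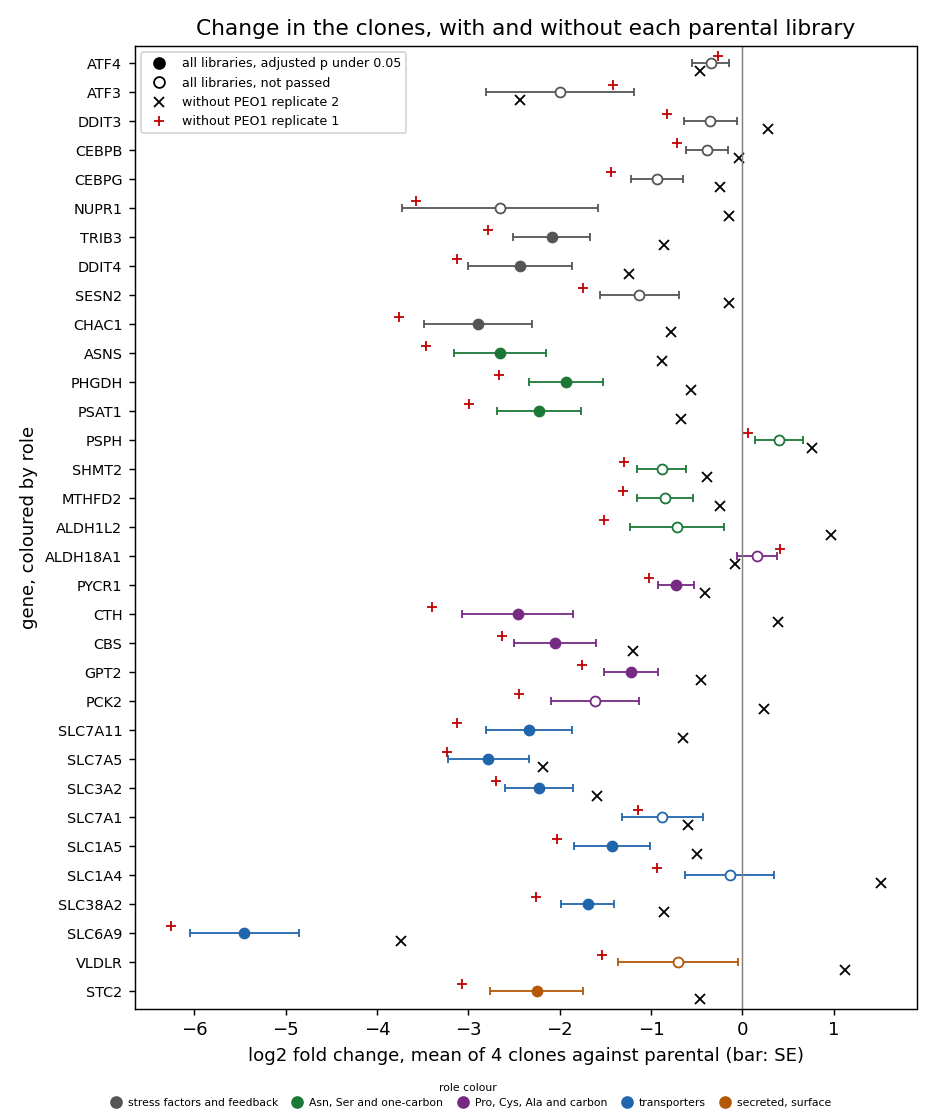
Log2 ratio of the mean of 4 clones against parental for each gene, with the SE of the fit as bars; filled points passed at an adjusted p under 0.05. Crosses give the value without PEO1 replicate 2 and plus signs without PEO1 replicate 1, and the cross lies to the right of the point in all rows but ATF4, ATF3 and ALDH18A1.

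Most of the amino acid transporters fell. Of the 8, 6 fell and 0 rose, 7 fell with the block, and the median log2 ratio was -1.96. SLC6A9 (chromosome 1, 44462155 to 44497164), the glycine transporter GlyT1, was at 16.6 and 92.9 CPM in PEO1 replicates 1 and 2. In the clones it was at 2.55 and 2.06 CPM (ABTr1), 0.654 and 1.59 (ABTr2), 1.03 and 1.86 (ABTr3) and 0.215 and 1.17 (ABTr4). All clone libraries lay far below both parental libraries, and PEO1 replicate 2 was 5.58-fold above PEO1 replicate 1. SLC6A9 fell by 5.45 on the log2 scale (SE 0.60, edgeR BH-adjusted p = 0.00089), and in this mean comparison it passed in all 17 alternative settings, at -3.73 with PEO1 replicate 2 left out and at -6.26 with the other parental library left out. It was called in each of the 4 clones, with log2 ratios of -4.57, -5.66, -5.25 and -6.34 in ABTr1 to ABTr4. Without PEO1 replicate 2 the call held only in ABTr4, with log2 ratios of -2.88, -3.91, -3.54 and -4.61 and adjusted p of 0.113, 0.079, 0.0916 and 0.0427 from edgeR. It was also lost in ABTr1, ABTr2 and ABTr3 when either library of the clone was left out, in ABTr4 without its replicate 1, and in ABTr2 and ABTr4 with only the 2 groups compared (edgeR BH-adjusted p = 0.0809 and 0.052).

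SLC7A5 and SLC3A2 encode the light and heavy chains of the LAT1 transporter, which brings leucine and other large neutral amino acids into the cell in exchange for glutamine. SLC7A5 (chromosome 16, 87863629 to 87903100) was at 998 and 2024 CPM in PEO1 and at 285 and 125, 314 and 120.2, 383 and 169, and 247 and 135 CPM in replicates 1 and 2 of ABTr1 to ABTr4. SLC3A2 (chromosome 11, 62623484 to 62656355) was at 344 and 721 CPM in PEO1 and at 66.4 to 165 CPM in the 8 clone libraries. For both chains all clone libraries were below both parental libraries, replicate 2 was the higher of the parental pair, and replicate 2 was the lower in each clone. SLC7A5 fell by 2.78 (SE 0.44, edgeR BH-adjusted p = 0.00452) and SLC3A2 by 2.22 (SE 0.37, edgeR BH-adjusted p = 0.00562) on the log2 scale. The values without PEO1 replicate 2 were -2.19 and -1.59, with adjusted p of 0.0647 and 0.0904, and with the block added they were -1.72 and -1.22 and both passed.

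SLC38A2, the sodium-coupled neutral amino acid transporter SNAT2, was at 923 and 2390 CPM in PEO1 and at 373 to 722 CPM in the clone libraries. It fell by 1.69 on the log2 scale (SE 0.29, edgeR BH-adjusted p = 0.00603). The value without PEO1 replicate 2 was -0.85, and -0.90 with the block added. SLC7A11, the cystine and glutamate exchanger xCT, was at 38.1 and 208 CPM in PEO1 and at 16.2 to 41.1 CPM in the clones. PEO1 replicate 1 thus lay within the range of the clone libraries, and the log2 ratio of -2.33 (SE 0.47, edgeR BH-adjusted p = 0.0128) was -0.65 without PEO1 replicate 2 (adjusted p = 0.387). SLC1A5, the glutamine transporter ASCT2, showed the same arrangement, with 219 and 618 CPM in PEO1 and 91.6 to 238 CPM in the clones (log2 ratio -1.43, SE 0.41, edgeR BH-adjusted p = 0.0489, and -0.50 with an adjusted p of 0.584 without PEO1 replicate 2).

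SLC7A1, the cationic amino acid transporter CAT-1, and SLC1A4, a transporter of alanine and serine, did not pass. SLC7A1 had 204 and 292 CPM in PEO1 and 62.2 to 224 CPM in the clones, so the groups overlapped. Its log2 ratio was -0.87 (SE 0.44, edgeR BH-adjusted p = 0.218), and it passed with the block at -1.08 (edgeR BH-adjusted p = 0.0185). Its value without PEO1 replicate 2 was -0.60 (adjusted p = 0.611), and -0.15 (adjusted p = 0.714) with the block added. SLC1A4 had 15.3 and 81.4 CPM in PEO1 and 30.7 to 63.1 CPM in the clones, so the clones lay between the parental libraries. Its log2 ratio of -0.14 (SE 0.48) was 1.52 without PEO1 replicate 2 and 1.64 when the block was added to that fit. SLC1A4 is the gene counted above as rising there.

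Several transporters ran in opposite directions in the parental and the clone pairs. SLC7A5, SLC3A2, SLC7A1 and SLC1A5 were 2.03-fold, 2.10-fold, 1.43-fold and 2.82-fold higher in replicate 2 than in replicate 1 in PEO1. In the 4 clones the same ratios were 0.383 to 0.545, 0.479 to 0.655, 0.304 to 0.595 and 0.441 to 0.697, all below 1. The difference between the parental and the clone pairs passed for 7 of the 8 transporters, the exception being SLC6A9 (1.61, SE 0.61, edgeR BH-adjusted p = 0.223). For SLC7A5 it was 2.18 on the log2 scale (SE 0.30, edgeR BH-adjusted p = 0.00261), for SLC1A5 2.30 (SE 0.32, edgeR BH-adjusted p = 0.00283) and for SLC1A4 2.67 (SE 0.36, edgeR BH-adjusted p = 0.00242).

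Among the 7 enzymes of asparagine, serine and one-carbon synthesis, 3 fell and 0 rose, 5 fell with the block, and the median log2 ratio was -0.88. Asparagine synthetase ASNS (chromosome 7, 97481429 to 97501854), which carries the motif 68 bases before an annotated start, was at 82.7 and 486 CPM in PEO1. Its clone values were 62.1 and 43.7 CPM in ABTr1, 32.1 and 48.0 in ABTr2, 41.9 and 104 in ABTr3, and 20.03 and 34.2 in ABTr4. PEO1 replicate 2 stood above all of them, and ABTr3 replicate 2 stood above PEO1 replicate 1. ASNS fell by 2.65 on the log2 scale (SE 0.51, edgeR BH-adjusted p = 0.0103), which was -0.87 without PEO1 replicate 2 (adjusted p = 0.318) and -1.17 when the block was added to that fit (edgeR BH-adjusted p = 0.0121).

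PHGDH, PSAT1 and PSPH catalyse the consecutive steps from 3-phosphoglycerate to serine. PHGDH was at 191 and 799 CPM in PEO1 and 85.3 to 216 CPM in the clones, and fell by 1.93 (SE 0.40, edgeR BH-adjusted p = 0.0148). PSAT1 was at 263 and 1286 CPM in PEO1 and 96.0 to 242 CPM in the clones, and fell by 2.23 (SE 0.46, edgeR BH-adjusted p = 0.0142). PSPH, the enzyme of the last step, was at 34.1 and 54.1 CPM in PEO1 and 45.8 to 76.2 CPM in the clones, a log2 ratio of 0.40 (SE 0.26, edgeR BH-adjusted p = 0.342). PHGDH and PSAT1 thus fell while the value of PSPH was positive, as it was in all 17 alternative settings. PSPH has a near-identical pseudogene copy, so its counts are uncertain. Without PEO1 replicate 2 PHGDH stood at -0.56 and PSAT1 at -0.67, with adjusted p of 0.361 and 0.386, and with the block added PHGDH passed at -0.76 (edgeR BH-adjusted p = 0.0263).

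SHMT2 and MTHFD2, mitochondrial enzymes that turn serine into glycine and one-carbon units, did not pass. SHMT2 had 178 and 325 CPM in PEO1 and 103 to 195 CPM in the clones (log2 ratio -0.88, SE 0.27, edgeR BH-adjusted p = 0.0574). MTHFD2 had 258 and 525 CPM in PEO1 and 110.3 to 292 CPM in the clones (log2 ratio -0.84, SE 0.31, edgeR BH-adjusted p = 0.0974). Both passed with the block, at -0.84 and -0.89. SHMT2 stood at -0.39 (adjusted p = 0.511) and MTHFD2 at -0.25 (adjusted p = 0.723) without PEO1 replicate 2, and neither passed when the block was added to that fit, at -0.50 (adjusted p = 0.172) and -0.037 (adjusted p = 0.936). ALDH1L2, the mitochondrial formyltetrahydrofolate dehydrogenase, had 17.6 and 96.5 CPM in PEO1 and 19.4 to 55.9 CPM in the clones, between the parental libraries. Its log2 ratio was -0.71 (SE 0.52, edgeR BH-adjusted p = 0.391), and it became 0.98 without PEO1 replicate 2.

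Of the 6 enzymes of proline, cysteine, alanine and carbon metabolism, 4 fell and 0 rose, 5 fell with the block, and the median log2 ratio was -1.42. The transsulfuration enzymes CBS and CTH make cysteine from homocysteine. CBS was at 87.5 and 231 CPM in PEO1 and at 10.5 to 57.1 CPM in the clones, all below both parental libraries, and fell by 2.05 (SE 0.45, edgeR BH-adjusted p = 0.0181). CTH was at 3.25 CPM in PEO1 replicate 1, at 43.8 CPM in PEO1 replicate 2 and at 3.22 to 7.80 CPM in the clones. The CTH level of PEO1 replicate 1 was at the low end of the clone range, and replicate 2 was 13.5-fold above it, the widest parental gap among the 33 genes. Its log2 ratio of -2.46 (SE 0.61, edgeR BH-adjusted p = 0.0275) was 0.39 without PEO1 replicate 2, whereas that of CBS was -1.19 and, with the block added, -1.69.

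PYCR1, which makes proline in mitochondria, had 182 and 271 CPM in PEO1 and 119.6 to 149 CPM in the clones, and fell by 0.72 (SE 0.19, edgeR BH-adjusted p = 0.0376). GPT2, the mitochondrial alanine transaminase, had 60.7 and 147 CPM in PEO1 and 26.4 to 72.9 CPM in the clones, and fell by 1.22 (SE 0.29, edgeR BH-adjusted p = 0.0251). Both calls ended without PEO1 replicate 2, at -0.41 and -0.45, and also in other settings. In the mean comparison PYCR1 passed in 6 of the 17 alternative settings, CTH and SLC1A5 in 7, GPT2 in 10, and DDIT4 and STC2 in 12. The remaining called genes passed in 14 or more. ALDH18A1, which acts earlier in proline synthesis, had 164 and 114 CPM in PEO1 and 113 to 177 CPM in the clones, and its log2 ratio was 0.16 (SE 0.22). PCK2, the mitochondrial phosphoenolpyruvate carboxykinase, had 30.9 and 193 CPM in PEO1 and 27.2 to 52.0 CPM in the clones. Its log2 ratio of -1.62 (SE 0.48, edgeR BH-adjusted p = 0.0548) was 0.24 without PEO1 replicate 2, and it passed with the block at -1.38 (edgeR BH-adjusted p = 0.0271), but not when PEO1 replicate 2 was left out of that fit, at 0.13.

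Of the 10 stress transcription factors and feedback genes, 3 fell and 0 rose, 7 fell with the block, and the median log2 ratio was -1.56. TRIB3, a pseudokinase that feeds back on ATF4, had 85.3 and 317 CPM in PEO1 and 31.9 to 77.5 CPM in the clones, all below both parental libraries (log2 ratio -2.09, SE 0.42, edgeR BH-adjusted p = 0.0130). CHAC1, an enzyme that degrades glutathione, had 6.37 and 49.2 CPM in PEO1 and 2.15 to 7.15 CPM in the clones (log2 ratio -2.90, SE 0.59, edgeR BH-adjusted p = 0.0136). DDIT4, the mTORC1 inhibitor REDD1, had 160.3 and 578 CPM in PEO1 and 11.4 to 215 CPM in the clones (log2 ratio -2.44, SE 0.57, edgeR BH-adjusted p = 0.0229). All 3 calls ended without PEO1 replicate 2, at -0.85, -0.78 and -1.24, and those of TRIB3 and DDIT4 passed when the block was added to that fit. SESN2, another inhibitor of mTORC1, did not pass, with 9.60 and 28.4 CPM in PEO1 and 4.88 to 13.2 CPM in the clones. Its log2 ratio was -1.13 (SE 0.43, edgeR BH-adjusted p = 0.112), and it passed with the block at -1.21 (edgeR BH-adjusted p = 0.0421). Without PEO1 replicate 2 it was -0.15 (adjusted p = 0.891), and 0.15 (adjusted p = 0.783) with the block added.

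DDIT3, the gene of the death-promoting factor CHOP, had 19.5 and 41.0 CPM in PEO1 and 18.3 to 31.3 CPM in the clones, a log2 ratio of -0.35 (SE 0.29, edgeR BH-adjusted p = 0.463). The bZIP partners CEBPB and CEBPG had log2 ratios of -0.39 (SE 0.23) and -0.93 (SE 0.29, edgeR BH-adjusted p = 0.0584). CEBPB was at 40.8 and 63.8 CPM in PEO1 and at 24.0 to 57.8 CPM in the clones, so the groups overlapped. CEBPG was at 62.2 and 139.6 CPM in PEO1 and at 38.7 to 65.9 CPM in the clones, and passed with the block. CEBPG stood at -0.24 (adjusted p = 0.667) without PEO1 replicate 2, and at -0.12 (adjusted p = 0.767) with the block added.

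NUPR1 and ATF3 followed the replicate number in clones as well as in PEO1. NUPR1, a small chromatin-associated stress protein, was 10.4-fold higher in replicate 2 than in replicate 1 in PEO1 and 3.16-fold, 10.2-fold, 5.79-fold and 21.0-fold higher in ABTr1 to ABTr4. ATF3, a bZIP factor of the immediate stress response, was at 77.8 and 37.8 CPM in PEO1, 11.8 and 4.68 CPM in ABTr1, 65.2 and 3.62 CPM in ABTr2, 46.8 and 7.80 CPM in ABTr3, and 4.84 and 6.53 CPM in ABTr4. Replicate 2 was thus lower in every group but ABTr4. Neither gene passed without the block (edgeR BH-adjusted p = 0.132 for each). NUPR1 stood at -0.14 (adjusted p = 0.97) and ATF3 at -2.43 (adjusted p = 0.216) without PEO1 replicate 2. With the block both fell, NUPR1 by 2.44 (SE 0.32, edgeR BH-adjusted p = 0.000362) and ATF3 by 2.18 (SE 0.53, edgeR BH-adjusted p = 0.0102) on the log2 scale. With the block and without PEO1 replicate 2 the values were -2.20 for NUPR1 and -1.72 for ATF3.

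Between the libraries numbered 2 and those numbered 1 over the 5 groups, 6 of the 33 genes were called higher (NUPR1, DDIT4, PSPH, CBS, SLC6A9 and VLDLR) and 2 lower (ATF3 and SLC7A1), where 15.5% of all tested genes were called higher and 14.8% lower. Without 1 of the PEO1 libraries, which leaves only the clone pairs to inform that contrast, 4 were called higher and 9 lower. Of all tested genes 16.4% were called higher and 16.8% lower without PEO1 replicate 1, and 17.3% and 16.1% without PEO1 replicate 2.

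STC2, a secreted glycoprotein hormone, was at 108 and 644 CPM in PEO1 and 40.6 to 152 CPM in the clones, so that PEO1 replicate 1 lay within the clone range. Its log2 ratio was -2.25 (SE 0.51, edgeR BH-adjusted p = 0.0199), and -0.46 without PEO1 replicate 2 (adjusted p = 0.600). VLDLR, a lipoprotein receptor, was at 7.39 and 45.3 CPM in PEO1 and did not pass (log2 ratio -0.71, SE 0.65, edgeR BH-adjusted p = 0.512). ABTr1 held 37.5 and 29.7 CPM of VLDLR, the highest of the clones, and ABTr3 4.84 and 12.6 CPM.

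Within replicate 1, the mean of the 4 clones was below parental for 23 of the 33 genes, with a median ratio of clone to parental level of 0.779. Within replicate 2 it was below parental for 31 genes, with a median ratio of 0.213. The clone share of the parental level was smaller in replicate 2 than in replicate 1 for 31 of the 33 genes. The ratio was 0.5 or less for 9 genes in replicate 1 and for 27 in replicate 2. SLC6A9 had the lowest ratio in both, 0.0668 and 0.0180, and SLC7A5 had 0.308 and 0.0677. STC2 went from 1.00 in replicate 1 to 0.0994 in replicate 2, CTH from 1.20 to 0.113 and SLC1A4 from 3.20 to 0.509. For these 3 genes the clones were level with or above parental cells in one replicate and below them in the other. For 16 of the 33 genes all 8 clone libraries were below the parental library of their own number. Shares of all tested genes are not given for the counts and ratios within a replicate number, so they describe only these genes.

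**Figure D4:**
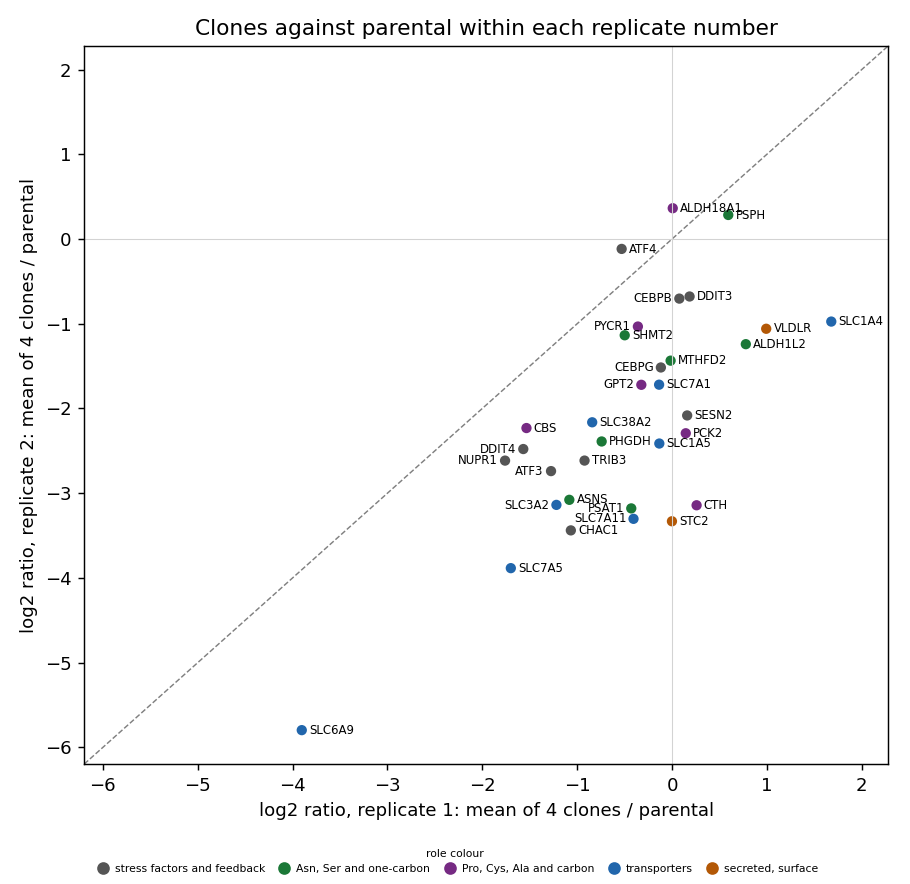
Log2 ratio of the mean of 4 clones to parental for each gene in replicate 1 (horizontal axis) and replicate 2 (vertical axis), coloured by role; the dashed line marks equal ratios. All genes but ATF4 and ALDH18A1 lie under the line, and SLC6A9 lies lowest and farthest left.

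In single clones fewer of the 33 genes passed, all of them lower. There were 4 in ABTr1, 5 in ABTr2, 1 in ABTr3 and 8 in ABTr4, where 4.29%, 2.81%, 3.89% and 5.25% of all tested genes were called lower and 5.48%, 3.31%, 3.48% and 4.46% higher. The 4 comparisons share the parental libraries. With the block 22, 17, 12 and 17 fell, where 14.5%, 10.8%, 11.6% and 13.9% of all tested genes were called lower. With the block PSPH also rose in ABTr4, where 13.1% of all tested genes were called higher, at a log2 ratio of 0.72 (edgeR BH-adjusted p = 0.0259). SLC7A5 and SLC3A2 passed in ABTr1, ABTr2 and ABTr4, and SLC38A2 in ABTr1 and ABTr4. PHGDH and GPT2 passed in ABTr2, and ASNS, CBS, SLC7A11 and STC2 in ABTr4. When each of the 10 libraries was left out in turn, the ABTr2 call of SLC7A5 was lost in all 10 fits. Those of SLC3A2, PHGDH and GPT2 in ABTr2 were lost in 9 fits each. The calls of the genes just named in ABTr1 and ABTr4 were lost in 3 to 7 of these fits. ASNS was lowest in ABTr4, with a log2 ratio of -3.39 (edgeR BH-adjusted p = 0.0344). At an unadjusted p under 0.05 the counts in ABTr1 to ABTr4 were 23, 19, 13 and 20 genes, 0 of them higher. The share of all tested genes at that threshold is not given here. The counts without PEO1 replicate 2 were 0, 0, 0 and 1, where 1.26%, 0.754%, 1.02% and 2.06% of all tested genes were called lower. None of the 33 genes passed an edgeR test of differences among the 4 clones, where 0.00606% of all tested genes did, nor did any with the block, where 0.843% did. DESeq2 and limma-voom called 0, and in edgeR 0 had an unadjusted p under 0.05, or 6 with the block.

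Per length, the most abundant of these transcripts in parental cells were PSAT1 at 343 RPKM, SLC38A2 at 339 RPKM and SLC7A5 at 333 RPKM (reads per length and depth, mean of 2 libraries). In the clones the highest means were those of SLC38A2 in ABTr1 (87.1 RPKM) and ABTr2 (138.9 RPKM) and of MTHFD2 in ABTr3 (126 RPKM) and ABTr4 (107 RPKM). At the other end of the scale, SLC6A9 and SESN2 averaged 3.27 and 3.06 RPKM over the groups. Counting was not stated to use strand, and exons of SLC6A9, SLC7A11, SHMT2, DDIT3 and VLDLR overlap another gene over 1.15 to 5.77% of their length, so a part of their reads may belong to the neighbour. SLC7A5 also has near-identical pseudogene copies.

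Other genes of the pathway were read from 6 lists that leave out the 33 genes. The median log2 ratios were -0.29 for other stress-induced targets of ATF4, -0.01 for other transporters, -0.27 for other enzymes, -0.11 for amino acid sensing, -0.18 for the stress kinases and eIF2 control and -0.14 for the endoplasmic reticulum genes, beside 0.02 for all tested genes. The shares of all tested genes called in this comparison were those given above, 8.79% lower and 7.17% higher, or 18.2% and 16.3% with the block. Without PEO1 replicate 2, an alternative chosen after the data were seen, 1 rose and 0 fell among other stress-induced targets (MAP1LC3B), 2 rose and 2 fell among other transporters, 0 rose and 2 fell among other enzymes (GOT1 and AHCY), 1 rose and 0 fell among sensing genes (SESN3), and 0 passed among the kinases and the reticulum genes. ADM2, RAB39B, BCAT2, MIOS and IMPACT lost their calls there, at -1.52, 2.52, -0.89, -0.86 and 0.92. So did ATF5, JDP2, LMO4, SLC38A9 and BCAT1, at -1.44, -1.77, -1.23, -0.71 and 0.40. The sign of BCAT1 turned there, from -1.83 with all libraries. Of 20 tested among 22 other stress-induced targets of ATF4, 4 fell and 2 rose, and 7 fell and 5 rose with the block. The peptide hormone gene ADM2 fell from 1.44 and 19.2 CPM in PEO1 to 0.339 to 0.842 CPM in the clones (log2 ratio -4.36, SE 0.65, edgeR BH-adjusted p = 0.00331). RAB39B, a vesicle GTPase, and MAP1LC3B, an autophagosome protein, rose by 2.36 (SE 0.47, edgeR BH-adjusted p = 0.0123) and 1.32 (SE 0.27, edgeR BH-adjusted p = 0.0134) on the log2 scale. Of 20 tested among 24 other amino acid transporters, 3 fell and 2 rose, and 6 fell and 6 rose with the block. The glutamate transporter SLC1A3 rose from 2.55 and 1.47 CPM to 5.94 to 41.8 CPM (log2 ratio 3.18, SE 0.41, edgeR BH-adjusted p = 0.00175), and SLC43A2 and SLC36A1, carriers of large neutral and of small amino acids, fell by 1.95 (SE 0.26) and 1.42 (SE 0.24).

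Of 29 other amino acid and one-carbon enzymes, 4 fell and 0 rose (7 and 2 at an unadjusted edgeR p under 0.05), and 9 fell and 5 rose with the block. GOT1, the cytosolic aspartate transaminase, fell from 80.5 and 89.0 CPM to 34.8 to 45.8 CPM (log2 ratio -1.10, SE 0.16, edgeR BH-adjusted p = 0.00337), with close parental values. AHCY, which hydrolyses S-adenosylhomocysteine, fell by 1.02 (SE 0.18) and the branched-chain transaminase BCAT2 by 0.82 (SE 0.20). Of 18 genes of amino acid sensing by mTORC1, SESN3, an inhibitor related to SESN2, rose by 3.20 (SE 0.39, edgeR BH-adjusted p = 0.00134) and MIOS, a subunit of GATOR2, fell by 0.79 (SE 0.22, edgeR BH-adjusted p = 0.0408) on the log2 scale, and 1 fell and 2 rose with the block.

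Of 14 genes of the stress kinases and eIF2 control, 1 rose and 0 fell, and 2 rose and 2 fell with the block. The first was IMPACT, an inhibitor of the kinase GCN2, at 34.5 and 36.2 CPM in PEO1 and 60.2 to 74.5 CPM in the clones (log2 ratio 0.89, SE 0.18, edgeR BH-adjusted p = 0.0138). At an unadjusted p under 0.05 it was 2 higher and 1 lower. EIF2AK4, the gene of GCN2 itself, had a log2 ratio of 0.62 (SE 0.25, edgeR BH-adjusted p = 0.125), and passed with the block at 0.65 (edgeR BH-adjusted p = 0.0292). Of 21 endoplasmic reticulum chaperone and unfolded protein genes, 0 passed in edgeR, 3 were lower and 0 higher at an unadjusted p under 0.05, and 5 fell and 1 rose with the block. ATF6 and ERN1, sensors of unfolded protein in the reticulum, had log2 ratios of -0.70 (SE 0.21, edgeR BH-adjusted p = 0.0566) and -1.26 (SE 0.43, edgeR BH-adjusted p = 0.0833). The same 6 lists were also read in the test of the parental pair against the clone pairs, and the genes are named because they passed. The parental replicate difference exceeded that of the clones for 1 of these 21 genes (XBP1), 2 of 20 other ATF4 targets (ADM2 and GADD45B), 2 of 20 other transporters (SLC38A1 and SLC43A1), 2 of 29 other enzymes (BCAT1 and GLUL), 1 of 18 sensing genes (RRAGD) and 0 of 14 kinase and eIF2 genes. Of all tested genes 1.13% passed in that direction and 1.58% in the other. At an unadjusted p under 0.05 the list counts in that direction and in the other were 7 and 2, 6 and 0, 5 and 1, 3 and 1, 1 and 1, and 1 and 0, in the order of the lists just given. For none of the list counts at an unadjusted p is the share of all tested genes given. BCAT1, the cytosolic branched-chain transaminase, was at 24.7 and 207 CPM in PEO1 and at 20.3 to 44.9 CPM in the clones.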

How the data were processed

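Poly(A) RNA libraries (TruSeq v2) of 10 samples were measured. The submitters' processing notes name TopHat2 2.0.14, the build hg19 and featureCounts 1.4.6 from Subread. The deposited values are raw read counts per gene, and strand and multi-mapping settings are not given in the sources used here. The deposited gene length was used for RPKM.

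Library totals were 20640602 to 55488566 counts. Genes were filtered with filterByExpr, scaled by TMM and tested with the quasi-likelihood test of edgeR 4.0.16 in R 4.3.3 over all 5 groups, with Benjamini-Hochberg adjustment over 16490 genes and a threshold of 0.05. CPM carry the TMM factors, and replicate differences used log2(CPM + 0.5). The contrasts were the mean of 4 clones and each clone against parental, differences among clones, replicate 2 against 1, and the parental replicate difference against that of the clones. Replicate numbers came from the sample titles. Over the 10 pairs of groups, deviations of same-numbered libraries correlated at 0.348 to 0.490 between PEO1 and a clone and at 0.517 to 0.808 between clones. The numbers were taken to pair the samples, though PEO1 was paired most weakly. Fits with the replicate as a block are given beside the results. Clones are called by their titles; the descriptions number them otherwise. DESeq2 1.42.0, limma-voom (limma 3.58.1), no filter, upper-quartile factors, each library left out, only the 2 groups compared and the clone as the unit were alternatives. The tests were also run on simulated counts, drawn as independent libraries with a spread common to all genes. The simulation did not copy the replicate differences seen here, so it does not show how the tests behave with them. Figures were drawn with matplotlib 3.10.9 in Python 3.11.15. RefSeq promoters matched 26 of the 33 symbols.

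The 33 genes and the other lists were chosen with earlier results of these data known. All 33 are named, and from each other list up to 3 genes with the smallest adjusted p in the mean comparison. Other genes of those lists are named where they lost a call or passed another test.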

Additional observations from a re-analysis of the deposited data

Results flagged for a closer look

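In 17 genes the difference between the libraries of a group, replicate 2 minus replicate 1 on the log2 scale, was larger in PEO1 than in the clones by an edgeR test of that difference (adjusted p under 0.05). The excess was 2.87 for SLC7A11, 2.18 for SLC7A5, 1.94 for SLC3A2, 1.61 for SLC7A1, 2.30 for SLC1A5, 2.67 for SLC1A4 and 1.29 for SLC38A2 among the transporters. Among the enzymes it was 1.69 for PHGDH, 2.85 for PSAT1, 1.48 for MTHFD2, 1.96 for ALDH1L2, 3.45 for CTH, 1.48 for GPT2 and 2.43 for PCK2. It was 1.43 for CEBPG, 2.24 for SESN2 and 3.29 for STC2. The test rests on 1 parental pair of libraries and on genes chosen with earlier results of these data known.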

How the results depend on the processing

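The count of 17 genes lower in the mean of the clones was 10 with limma-voom and 1 to 23 when each library was left out, the lowest without PEO1 replicate 2. For ABTr1 the count of 4 was 19 with DESeq2, 12 with no filter, 1 with only the 2 groups compared, 22 with the replicate block and 0 to 16 with each library left out. For ABTr2 the count of 5 was 13, 10, 0, 17 and 0 to 14 in the same settings, 3 with limma-voom and 1 with upper-quartile factors. For ABTr3 the count of 1 was 13, 5, 2, 12 and 0 to 12, and for ABTr4 the count of 8 was 16, 13, 1, 18 and 0 to 18. These counts are of genes called in either direction, and the 18 with the block in ABTr4 are 17 lower and PSPH higher. For DESeq2, limma-voom, no filter, upper-quartile factors and only the 2 groups compared, shares of all tested genes are not given. A change in count there cannot be told from a change over all genes. The count of 8 for replicate 2 against 1 was 2 to 13 with each library left out. The causes were not tested. The block changed no call in the mean comparison other than the 8 gained.

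The sign of the log2 ratio of clones to parental turned for 9 genes, in every case without PEO1 replicate 2 except for SLC1A4 with limma-voom (0.37) and with upper-quartile factors (0.018). With each library left out the range was -1.51 to 0.98 for ALDH1L2, -3.40 to 0.39 for CTH, -0.83 to 0.28 for DDIT3, -2.44 to 0.24 for PCK2, -0.93 to 1.52 for SLC1A4, -1.53 to 1.12 for VLDLR and -0.083 to 0.41 for ALDH18A1, the sign turning only without PEO1 replicate 2. With the block and without PEO1 replicate 2 the values were 0.71 for ALDH1L2, 0.23 for CTH, 0.18 for DDIT3, 0.13 for PCK2, 1.64 for SLC1A4, 0.55 for VLDLR, 0.011 for CEBPB and 0.15 for SESN2.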
